A study of Mus musculus with 12 samples.

Results

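Cell cycle and proliferation genes were examined in whole lung, namely 22 genes of mitosis and 18 genes of S phase, 40 of the 55414 genes in the table. They were taken by gene symbol from a list of genes with known roles in the cell cycle. The mice had a C57BL/6J background, received 50 µg of lipopolysaccharide (LPS, a bacterial cell wall component that injures the lung) and were examined on day 4. Of the 12 mice, 6 were IL-10 B-KO, in which Mb1-Cre deletes floxed Il10 in cells of the B lineage, and 6 were their IL-10 B-WT controls; they are called knockout and control lungs below, although the deletion is limited to B lineage cells. The mice were matched for age and sex, and the age, as well as the Cre and floxed alleles of the controls, is not given in the sources used here. All 12 lungs had received LPS, so that no untreated lung serves as a background. Because bulk RNA of the whole organ was measured, fewer dividing cells and less RNA per cell cannot be told apart.

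Cells that enter the cycle pass the G1/S transition under E2F factors, load and activate the MCM helicase at origins, and make nucleotides and DNA in S phase. Mitotic cyclins with Cdk1, the spindle motors and the anaphase promoting complex act later, and most of their transcripts peak in G2 and mitosis. In an injured lung, dividing cells can include epithelial, endothelial and stromal cells as well as leukocytes.

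Levels are given as TPM, transcript abundances corrected for length and scaled to a fixed total in each library, which keep no sequencing depth, so that the counting error behind each value is unknown. The columns summed to between 991646 and 994430 TPM, and between 21380 and 24138 genes were above 0 TPM in a lung. Differences between genotypes are log2 fold changes of TPM + 1, knockout minus control, from limma over 15148 genes with at least 1 TPM in at least 6 lungs; this scale understates the change of genes with low TPM. Calls needed a log2 fold change of 1 or more in size together with an adjusted p no larger than 0.05. The p-values measure the spread between these lungs.

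Several libraries stood apart. Control replicate 5 had 30.5% of its TPM in mitochondrially encoded genes against 4.63% to 15.8% in the other lungs, and the lowest median log2(TPM + 1) over the genes tested, while the other lungs had medians of 3.59 to 4.02. Control replicate 2 had 15.4% of its TPM in immunoglobulin genes. Control replicates 4, 5 and 6 had 7.68%, 9.66% and 4.03% of their TPM in globin genes, against 0.297% to 2.27% in the other lungs. Control replicate 1 had the highest, and knockout replicate 2 the lowest, cell cycle levels of its genotype, as given below. As a check of the labels, Il10 (ENSMUSG00000016529) reached at most 0.88 TPM in a control and 0.58 TPM in a knockout lung and did not separate the genotypes. Cd79a (ENSMUSG00000003379), which encodes the B cell receptor component also called Mb1, was no lower than 15.3 TPM in a control and no higher than 5.73 TPM in a knockout lung (exact permutation test, p = 0.00216, the smallest that this design gives). All 9 B cell markers examined had log2 fold changes below 0, as given below. The separation by Cd79a therefore does not show the deletion of Il10.

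All 40 genes were above 0 TPM in every lung and passed the filter on low values. Their summed level was 154.3 to 1205 TPM in control lungs (median 470.0) and 395.9 to 1048 TPM in knockout lungs (median 901.5). Control replicate 1 had the highest sum of the 12 lungs and control replicate 5 the lowest, so that the controls enclosed all of the knockout lungs. The log2 fold change was above 0 for 40 of the 40 genes, as for 63.2% of all genes tested, and ranged from 0.12 for Gins2, which was at -0.01 without control replicate 5, to 1.61 for Cdk1. The median log2 fold change was 0.86, beside 0.10 over all genes tested, a distance of 0.76. Centring each library on its median moved the median of all genes by -0.11, and leaving out control replicate 5 moved it by -0.12. Centring shifts all genes alike and so cannot alter the distance of the 40 genes from that median, which was 0.56 without control replicate 5. Of the 40 genes 0 were called by limma, where 0.495% of all genes were (75 genes, of which 71 were lower in knockout lungs and 4, or 0.0264% of all genes, higher), and their adjusted p-values lay between 0.330 and 0.809. At an unadjusted limma p of at most 0.05, 4 of the 40 genes (10.0%) were higher in knockout lungs, against 6.83% of all genes, and these were Cdk1, Tyms, Prc1 and Ccnb1. With each library centred on its median, and likewise with quantile normalization, 15 of the 40 genes had such a p, against 10.3% of all genes in either case, and 0 were called. The groups overlapped for each of the 40 genes, while they did not for 1.02% of all genes. The genes do not move independently, since the same lungs were high or low for nearly all of them.

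**Figure D1:**
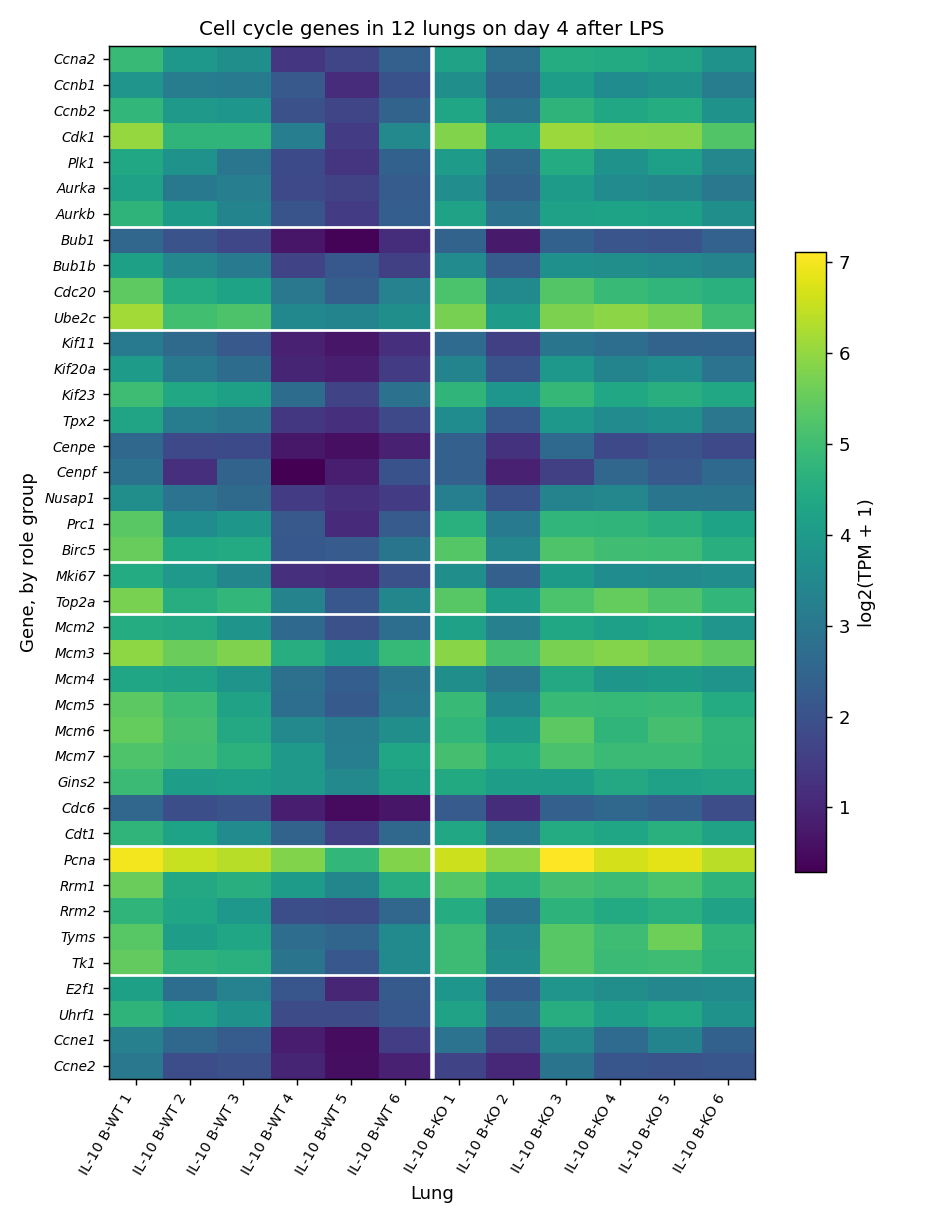
Level of each of the 40 genes (rows, by role group, white lines between groups) in each of the 12 lungs (columns, IL-10 B-WT controls left and IL-10 B-KO lungs right of the white line), as log2(TPM + 1) by colour. Control replicate 1 is as bright as the knockout lungs, and control replicates 4, 5 and 6 and knockout replicate 2 are darker.

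The order of the lungs was shared to a large degree. Control replicate 1 had the highest level among the controls for 40 of the 40 genes, and the highest of all 12 lungs for 31. Control replicate 5 was the lowest control for 35, replicate 4 for 4 and replicate 6 for 1. Knockout replicate 2 had the lowest level of its genotype for 40 of the 40 genes, and knockout replicate 3 the highest for 25. For 37 of the genes the 4 lowest lungs were control replicates 4, 5 and 6 and knockout replicate 2, a set of lungs named after their values were seen. The spread within the controls was wide: the median standard deviation of log2(TPM + 1) over the 40 genes was 1.07 in control lungs and 0.572 in knockout lungs, beside 0.442 and 0.306 over all genes tested.

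The number of genes with a small p also depended on single lungs. Without control replicate 1, 36 of the 40 genes had an unadjusted limma p of at most 0.05 and were higher in knockout lungs, against 18.0% of all genes, and 1 gene, Cdk1, was called (log2 fold change 2.03, limma adjusted p = 0.0466, with 0.0466 to 0.616 over all alternatives), against 2.37% of all genes called as higher. Without knockout replicate 2, 23 of the 40 genes had such a p, against 11.2% of all genes, and 0 were called. Without control replicate 5, 1 of the 40 genes had such a p, against 3.14% of all genes, 0 were called, and the median log2 fold change of the 40 genes was 0.54.

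Among the mitotic cyclins and kinases, all 7 genes had higher means in knockout lungs, with log2 fold changes from 0.68 for Aurka to 1.61 for Cdk1 and a median of 0.97. Cdk1 (ENSMUSG00000019942, chromosome 10, 69335146 to 69352938 on GRCm38, as are all gene positions here), the kinase that drives entry into mitosis, was at 1.77 to 64.0 TPM in control lungs (median 18.0) and 20.8 to 66.3 TPM in knockout lungs (median 56.5). Each knockout lung was above the control median, but control replicate 1 was above all knockout lungs other than replicate 3. The mean was 22.7 ± 22.5 TPM in control lungs and 49.4 ± 17.0 TPM in knockout lungs (SD, n = 6 each). The log2 fold change was 1.61 (limma adjusted p = 0.330, standard error 0.61). For this gene alone the exact permutation p was 0.0411, two-sided, and the difference did not pass the adjustment over all genes. Ccnb1 (ENSMUSG00000041431, chromosome 13, 100778650 to 100786570), cyclin B1, the partner of Cdk1, was at 1.21 to 13.3 TPM (median 5.54) and 4.74 to 15.9 TPM (median 11.5), with a log2 fold change of 0.90 (limma adjusted p = 0.388); it was named after its value was seen. Its groups overlapped, and 5 of the 6 knockout lungs lay above the control median.

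The spindle checkpoint and the anaphase promoting complex hold and then release the separation of sister chromatids. The 4 genes of this group had log2 fold changes from 0.62 for Bub1 to 0.92 for Cdc20. Cdc20 (ENSMUSG00000006398, chromosome 4, 118432901 to 118437352), an activator of the complex, was at 4.08 to 41.4 TPM in control lungs (median 13.4) and 10.6 to 38.2 TPM in knockout lungs (median 27.8; standard error of the log2 fold change 0.46, limma adjusted p = 0.436). Ube2c (ENSMUSG00000001403, chromosome 2, 164769898 to 164778822), a ubiquitin-conjugating enzyme of the complex, was at 9.33 to 70.0 TPM (median 21.9) and 15.7 to 60.1 TPM (median 51.5; log2 fold change 0.88, limma adjusted p = 0.460). For both genes the knockout lungs lay inside the range of the controls, and the highest lung was control replicate 1.

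The 9 genes of the spindle, kinetochore and midzone had log2 fold changes from 0.42 for Cenpf to 1.28 for Prc1. Prc1 (ENSMUSG00000038943, chromosome 7, 80294450 to 80316259), which bundles microtubules of the midzone, was at 1.20 to 40.1 TPM in control lungs (median 7.42) and 7.75 to 26.5 TPM in knockout lungs (median 23.2; limma adjusted p = 0.391, standard error 0.59, exact permutation p = 0.0844). Birc5 (ENSMUSG00000017716, chromosome 11, 117849251 to 117855743), survivin, a subunit of the chromosomal passenger complex, was at 3.48 to 44.8 TPM (median 13.2) and 9.92 to 38.8 TPM (median 31.1), with a log2 fold change of 1.14 (limma adjusted p = 0.417). Every knockout lung was above the control median for Prc1 and 5 of 6 were for Birc5, and control replicate 1 exceeded each knockout lung for both.

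Of the genes of mitotic chromosome structure, Top2a (ENSMUSG00000020914, chromosome 11, 98992943 to 99024189), the topoisomerase that untangles chromosomes, was at 3.41 to 52.7 TPM in control lungs (median 15.9) and 16.1 to 43.9 TPM in knockout lungs (median 36.0), with a log2 fold change of 1.03 (limma adjusted p = 0.417, standard error 0.50). Mki67 (ENSMUSG00000031004, chromosome 7, 135689784 to 135716361), which encodes the proliferation marker Ki-67, was at 1.19 to 21.2 TPM (median 6.34) and 4.17 to 15.0 TPM (median 11.3), with a log2 fold change of 0.78 (limma adjusted p = 0.545, standard error 0.56, exact permutation p = 0.242). The control lungs spanned both ends of the range, with replicates 4, 5 and 6 below every knockout lung and replicate 1 above. Without control replicate 5 the log2 fold change was 0.66 for Top2a and 0.46 for Mki67, and without control replicate 4 it was 0.48 for Mki67.

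Of the S phase genes, the 9 genes of origin licensing and the helicase had log2 fold changes from 0.12 for Gins2 to 0.98 for Cdt1 and a median of 0.57. Mcm3 (ENSMUSG00000041859, chromosome 1, 20802968 to 20820312), a helicase subunit, was at 15.3 to 60.8 TPM in control lungs (median 37.0) and 32.8 to 58.8 TPM in knockout lungs (median 50.5; log2 fold change 0.49, limma adjusted p = 0.502, standard error 0.31). Cdt1 (ENSMUSG00000006585, chromosome 8, 122568015 to 122573554), which loads the helicase, was at 1.92 to 25.7 TPM (median 7.93) and 7.18 to 23.7 TPM (median 19.2; limma adjusted p = 0.423). The knockout lungs lay inside the range of the controls for both genes. Without control replicate 5 the log2 fold change was 0.27 for Mcm3 and 0.65 for Cdt1. Gins2 (ENSMUSG00000031821, chromosome 8, 120578633 to 120589304), a subunit of the GINS complex that activates the helicase, named after its values were seen, varied least of the 40 genes, 2.84-fold over the 12 lungs, from 10.4 to 29.5 TPM.

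The genes of DNA synthesis and nucleotide supply had a median log2 fold change of 0.87 over 5 genes. Pcna (ENSMUSG00000027342, chromosome 2, 132249162 to 132253314), the sliding clamp of DNA polymerases and the most abundant of the 40 genes, was at 27.1 to 126.3 TPM in control lungs (median 69.0) and 59.96 to 137.0 TPM in knockout lungs (median 97.5; log2 fold change 0.53, limma adjusted p = 0.490). Tyms (ENSMUSG00000025747, chromosome 5, 30058202 to 30073617), thymidylate synthase, was at 4.72 to 39.4 TPM (median 13.4) and 10.2 to 47.7 TPM (median 30.8), with a log2 fold change of 1.11 (limma adjusted p = 0.364, standard error 0.47, exact permutation p = 0.0584). For Tyms 2 knockout lungs, and for Pcna 1, lay above every control. The log2 fold change of Pcna was 0.28 without control replicate 5.

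The 4 G1/S regulators had log2 fold changes from 0.43 for Ccne2 to 0.94 for Ccne1. Ccne1 (ENSMUSG00000002068, chromosome 7, 38097984 to 38107534), cyclin E1, was at 0.42 to 8.61 TPM in control lungs (median 2.83) and 2.29 to 10.2 TPM in knockout lungs (median 5.89; limma adjusted p = 0.418). Uhrf1 (ENSMUSG00000001228, chromosome 17, 56303321 to 56323486), which keeps DNA methylation through replication, was at 2.59 to 25.7 TPM (median 8.11) and 6.16 to 22.2 TPM (median 17.1; log2 fold change 0.88, limma adjusted p = 0.479). E2f1 (ENSMUSG00000027490, chromosome 2, 154559407 to 154569892), an activating E2F factor, was at 1.03 to 16.9 TPM (median 4.71) and 4.01 to 13.7 TPM (median 11.1; log2 fold change 0.86, limma adjusted p = 0.444). In each of these genes 5 of the 6 knockout lungs were above the control median, and the sixth was replicate 2. The log2 fold change of E2f1 was 0.54 without control replicate 5.

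**Figure D2:**
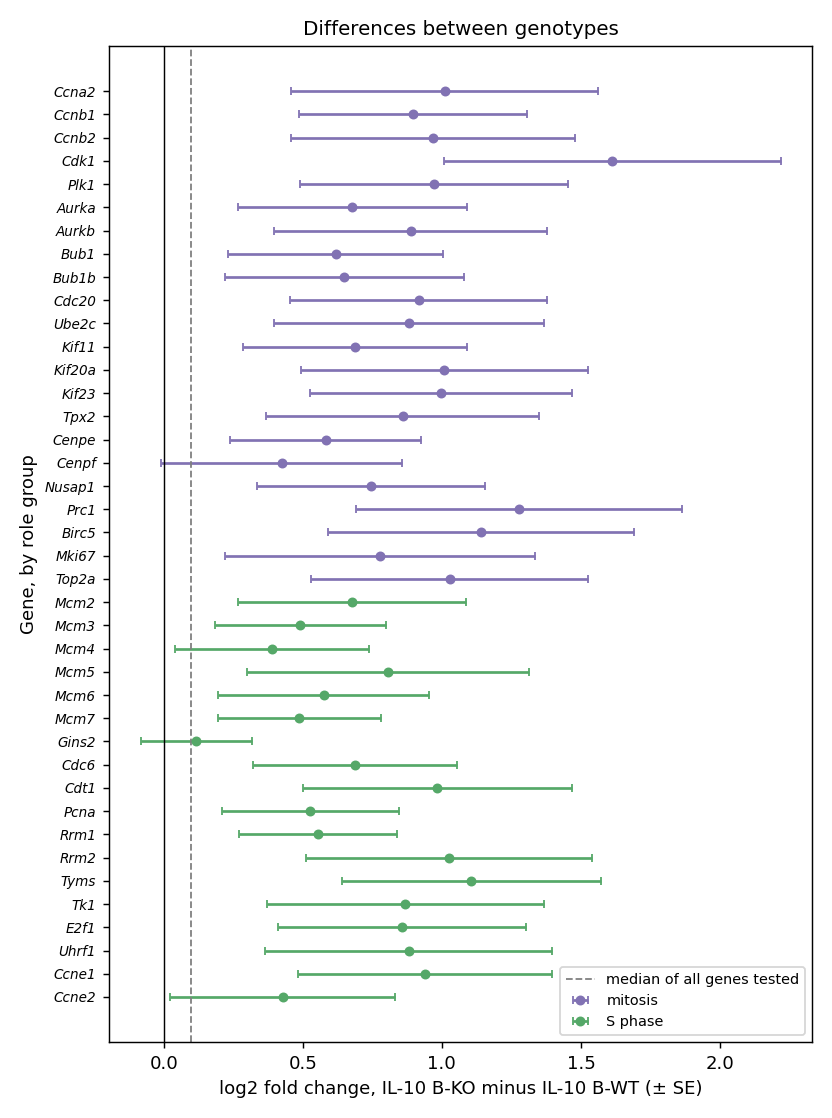
Log2 fold change of each of the 40 genes (IL-10 B-KO minus IL-10 B-WT, x axis, with its standard error from limma as bars), mitosis genes in purple and S phase genes in green. The dashed line is the median of all genes tested, 0.10, and the points lie between 0.12 and 1.61.

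Mitosis and S phase genes were then set side by side in each lung. The 22 mitosis genes had a median log2 fold change of 0.89 and the 18 S phase genes of 0.68. These medians were 0.62 and 0.45 without control replicate 5, and 1.23 and 0.91 without control replicate 1. Of the 22 genes 3 (13.6%) and of the 18 genes 1 (5.56%) were higher with an unadjusted limma p of at most 0.05, where 6.83% of all genes were. The mean log2(TPM + 1) of the mitosis genes was 1.48 to 4.44 in control lungs (median 2.82) and 2.64 to 4.16 in knockout lungs (median 3.94). That of the S phase genes was 2.29 to 4.80 (median 3.54) and 3.35 to 4.63 (median 4.36). In both, control replicate 1 was the highest of the 12 lungs and control replicates 6, 4 and 5 were the lowest, in that order. The fold between the highest and the lowest lung had a median of 13.7 over the mitosis genes, from 7.5 for Ube2c to 37.5 for Cdk1, and of 9.82 over the S phase genes, from 2.84 for Gins2 to 24.3 for Ccne1.

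S phase minus mitosis, the difference of these means in a lung, was 0.36, 0.66, 0.58, 0.96, 0.81 and 0.86 in control replicates 1 to 6 and 0.36, 0.70, 0.46, 0.38, 0.56 and 0.54 in knockout replicates 1 to 6. It was above 0 in every lung, a sign that depends on the levels of the genes in each set, as does the ratio of sums below. The 4 lungs with the lowest cell cycle levels had the 4 largest differences. The S phase genes also varied less over the lungs, with a median fold range of 9.82 against 13.7. A change in the balance of phases was not tested. The group means were 0.70 ± 0.22 and 0.50 ± 0.13 (SD, n = 6 each), a shift of -0.20 that was smaller than the spread of the controls, and the groups overlapped. No test was made of it, since it is a score over the chosen genes. In summed TPM, S phase genes were 1.07 to 2.42 times the mitosis genes in control lungs and 1.07 to 1.63 times in knockout lungs.

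**Figure D3:**
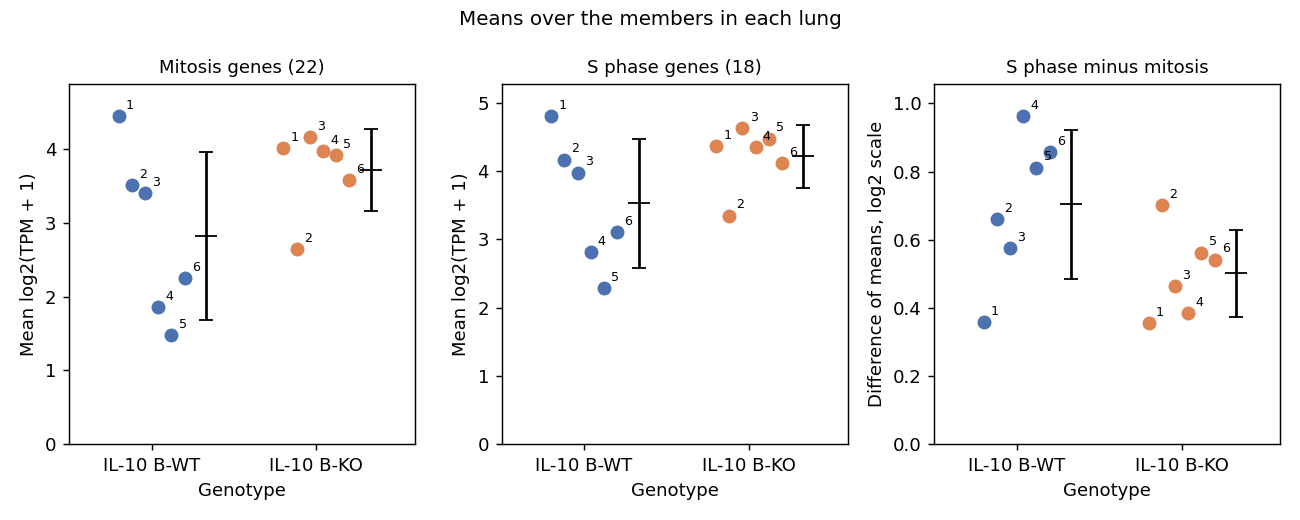
Mean log2(TPM + 1) of the 22 mitosis genes (left) and the 18 S phase genes (middle), and their difference (right), in each lung (points, with the replicate number) by genotype; black marks are the group mean and SD. The groups overlap in all 3 panels, with control replicate 1 at 4.44 and 4.80 in the first 2.

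Other genes of the cycle were read from lists. In the lists that follow, genes are counted as higher or lower in knockout lungs by the sign of the log2 fold change. For a few genes close to 0 this sign differs from that of the difference in mean TPM. Of all 15148 genes tested, 63.2% were higher by this sign. With an unadjusted limma p of at most 0.05, 1034 of all genes (6.83%) were higher and 865 lower. Of 44 tested genes among 45 other replication genes, 42 were higher (median log2 fold change 0.39), 4 with an unadjusted limma p of at most 0.05, and 0 were called. Lig1, the DNA ligase that joins replication fragments, and Gins1 had the smallest p-values in that list, with log2 fold changes of 0.72 and 0.73 (limma adjusted p = 0.379 for both), and Rfc2, a clamp loader subunit, was the most abundant at 22.3 to 74.3 TPM in controls and 56.3 to 72.6 TPM in knockout lungs. Of 60 tested genes among 62 other mitosis genes, 58 were higher (median 0.67), 9 of them with such a p, 2 were lower, 1 of them, Pttg1, with such a p, and 0 were called. Spc24, a kinetochore subunit, was at 3.31 to 22.6 TPM and 9.30 to 30.8 TPM (log2 fold change 1.18, limma adjusted p = 0.293), and Pbk, a mitotic kinase, at 0.70 to 13.5 TPM and 3.83 to 12.6 TPM (1.32, limma adjusted p = 0.303). Pttg1, securin, the most abundant of that list, went the other way, at 74.2 to 107.8 TPM in controls and 61.2 to 91.7 TPM in knockout lungs (log2 fold change -0.39, limma unadjusted p = 0.0164, adjusted p = 0.325, exact permutation p = 0.0130).

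Among regulators of the cycle, 17 of 21 E2F, MYB and FOXM1 factors and RB family genes had log2 fold changes above 0 (median 0.27). By limma 0 were called, and 1 higher and 1 lower gene had an unadjusted p of at most 0.05. E2f7, a repressing E2F factor, had a log2 fold change of 0.75 (limma adjusted p = 0.357), Lin52, a subunit of the DREAM complex, of -0.59 (limma adjusted p = 0.232), Myc of 0.55 (limma adjusted p = 0.638) and E2f4, the most abundant, of 0.17 (limma adjusted p = 0.736). Of 8 G1 cyclins and kinases 7 had log2 fold changes above 0, 0 with an unadjusted limma p of at most 0.05 and 0 called, with 0.46 for Ccnd1, cyclin D1 (limma adjusted p = 0.418), and 0.31 for Ccnd3, cyclin D3, the most abundant (limma adjusted p = 0.455). Of 15 inhibitors of the cycle 11 had log2 fold changes above 0; 0 were called by limma, and 3 higher and 1 lower gene had an unadjusted p of at most 0.05. Cdkn1a, p21, the most abundant of them, was at 77.6 to 168.2 TPM in controls and 102.4 to 413.1 TPM in knockout lungs (log2 fold change 0.70, limma adjusted p = 0.382), Wee1, which restrains Cdk1, had a log2 fold change of 0.63 (limma adjusted p = 0.298), and Cdkn1c, p57, of -0.75 (limma adjusted p = 0.343).

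Markers of several cell types were also higher in knockout lungs, and their part in the result was not tested. Of 8 neutrophil markers 8 had log2 fold changes above 0, each with an unadjusted limma p of at most 0.05 and 0 called. Their summed level was 2537, 458.5, 1116, 947.6, 288.5 and 554.9 TPM in control replicates 1 to 6 and 1290, 1054, 4488, 2030, 7629 and 5053 TPM in knockout replicates 1 to 6, with S100a9 the most abundant. Control replicate 1 was again the highest control and knockout replicate 2 the lowest of its genotype. From high to low, the controls stood in the order 1, 2, 3, 6, 4, 5 in the summed level of the 40 genes and 1, 3, 4, 6, 2, 5 in neutrophil markers, and the knockout lungs in the order 3, 5, 1, 4, 6, 2 and 5, 6, 3, 4, 1, 2. The 8 markers of monocytes and interstitial macrophages also had log2 fold changes above 0, 7 with such a p and 0 called, and summed to 2242, 515.4, 989.8, 272.0, 171.7 and 490.5 TPM and to 1991, 390.2, 2984, 1476, 3044 and 2103 TPM in the same order, with Ly6c2 the most abundant. In this list the controls stood in the order 1, 3, 2, 6, 4, 5, which differs from that of the 40 genes in replicates 2 and 3, and the knockout lungs in the order 5, 3, 6, 1, 4, 2. Each marker of both lists was above 0 TPM in every lung.

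Neutrophil precursors divide, whereas mature neutrophils do not. Of 8 precursor markers 6 were tested, all 6 with log2 fold changes above 0 (median 0.61, lowest 0.00 for Elane), 1 with an unadjusted limma p of at most 0.05 and 0 called. The 8 summed to 50.8, 176.1, 130.4, 157.6, 120.0 and 170.4 TPM in control replicates 1 to 6 and to 190.9, 134.5, 336.0, 126.2, 301.3 and 153.6 TPM in knockout replicates 1 to 6, with Ltf the most abundant and 2 of the 8, Elane and Ms4a3, at 0 TPM in some lung. The lowest sum was that of control replicate 1, in which Ltf was at 43.88 TPM, and the part of these cells in the result was not tested. The list of erythroid precursor markers holds globin genes, with Hbb-bs the most abundant, so that its sum cannot be read as a measure of dividing cells. These markers summed to 1642, 11290, 11850, 43890, 47320 and 23680 TPM and to 3109, 13020, 9192, 12040, 2064 and 5018 TPM, high in the control lungs in which the cell cycle genes were low. Of 8 tested genes 7 had log2 fold changes below 0, 0 were called by limma, and 1 higher and 1 lower gene, Tfrc and Epor, had an unadjusted p of at most 0.05. Klf1 was at 0 TPM in 1 knockout lung.

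The B cell markers went the opposite way to the cell cycle genes between genotypes. All 9 had log2 fold changes from -4.16 to -1.48, and 1, Cd79a, was called. They summed to 89.8, 998.6, 134.1, 84.5, 75.7 and 92.0 TPM in control replicates 1 to 6 and to 15.3, 86.1, 13.1, 7.51, 10.4 and 54.1 TPM in knockout replicates 1 to 6, with Cd79b the most abundant, and Cd79a, Pax5 and Cr2 were among those at 0 TPM in some knockout lungs, named here after their values were seen. Of 6 tested plasma cell markers 6 had log2 fold changes below 0 and 4 were called, and Igkc, the most abundant, was at 713.4 to 30371 TPM in controls and 1.12 to 216.7 TPM in knockout lungs. Control replicate 2, the lung richest in B cell transcripts, was 7th of the 12 lungs in mitosis genes and 6th in S phase genes.

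In the other lists, 7 of 11 T and NK cell markers (median log2 fold change 0.18, most abundant Gzma), 8 of 9 alveolar macrophage markers (0.38, Chil3), 8 of 8 alveolar type 2 cell markers (0.85, Sftpc), 0 of 8 endothelial markers (-0.28, Egfl7) and 4 of 8 fibroblast and pericyte markers (-0.04, Col3a1) had log2 fold changes above 0. Of these lists 1 gene was called, Pdgfrb, with a log2 fold change of -1.44 (limma adjusted p = 0.0456). Alveolar type 2 cell markers, 5 of them with an unadjusted limma p of at most 0.05, summed to 16300, 13690, 17300, 13610, 3332 and 8872 TPM in control replicates 1 to 6 and to 21150, 18410, 16570, 11680, 14340 and 15480 TPM in knockout replicates 1 to 6, lowest in control replicate 5 but high in knockout replicate 2, and each was above 0 TPM in every lung. Which cells carried the cell cycle transcripts was not tested.

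The promoters of the 40 genes were compared as a description of what they share. The genes had been grouped by known role and not by their levels in these lungs. Whether shared motifs have a part in the shared order of the lungs was not tested. RefSeq promoters (GRCm38.p6, 250 bases before to 50 after the start, 300 bases in all) were found for 33 of the 40 genes, and for Mcm7, Uhrf1 and Prc1 there were a pair of them, of which either could hold a match. Ccna2, Aurkb, Kif20a, Tpx2, Mcm4, Gins2 and Ccne2 had no entry. The window of E2f1 lay inside the gene, with its start 294 bases from the nearest GENCODE start. It held none of the motifs below and is counted among the S phase genes. The CHR element of mitotic genes, searched on both strands with the letters TTTGAA and in a further form as TTTAAA, was present in 16 of 18 mitosis genes (88.9%) and 6 of 15 S phase genes, and in 27.6% of the 32851 promoters in the table. The CCAAT box, searched as CCAAT on both strands, was present in 16 of 18 (88.9%), 9 of 15 and 37.4% of the same sets. E2F motifs, searched on both strands as TTTGGCGC or as TTTCGCGC or as TTTCCCGC, were present in 1 of 18 mitosis genes (5.56%), Cdk1, in 7 of 15 S phase genes (46.7%), and in 1.84% of all promoters. Of the 7 licensing and helicase genes with a promoter 6 held an E2F motif. For Mcm7 and Uhrf1 a single promoter of the pair held it, whereas the share of all promoters counts each promoter alone. A match describes letters in this window and nothing about binding.

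The stretches before the start of transcription are shown for 3 mitosis genes and 2 S phase genes, chosen after the matches were seen to show both arrangements, Cdk1 at chr10:69352939-69353162 (minus strand), Top2a at chr11:99024190-99024439 (minus strand), Cdc20 at chr4:118437353-118437593 (minus strand), Mcm6 at chr1:128359706-128359955 (minus strand) and Mcm5 at chr8:75109259-75109508 (plus strand). The build is GRCm38.p6 and the source RefSeq. Each ends before the most upstream GENCODE start of its gene, reads 5′ to 3′ on the gene's strand, and has the CHR, CCAAT and E2F letters in capitals; letters in capitals can be a match read on the other strand.
Cdk1: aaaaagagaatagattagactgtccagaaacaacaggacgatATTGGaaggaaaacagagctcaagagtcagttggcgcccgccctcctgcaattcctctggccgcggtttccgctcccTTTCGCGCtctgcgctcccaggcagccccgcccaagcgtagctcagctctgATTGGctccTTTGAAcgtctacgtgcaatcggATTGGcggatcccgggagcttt
Top2a: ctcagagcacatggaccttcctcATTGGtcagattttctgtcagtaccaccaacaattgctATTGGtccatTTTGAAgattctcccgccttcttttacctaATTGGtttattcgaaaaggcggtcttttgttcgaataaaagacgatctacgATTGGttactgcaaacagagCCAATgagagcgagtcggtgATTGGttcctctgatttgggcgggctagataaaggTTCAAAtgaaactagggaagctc
Cdc20: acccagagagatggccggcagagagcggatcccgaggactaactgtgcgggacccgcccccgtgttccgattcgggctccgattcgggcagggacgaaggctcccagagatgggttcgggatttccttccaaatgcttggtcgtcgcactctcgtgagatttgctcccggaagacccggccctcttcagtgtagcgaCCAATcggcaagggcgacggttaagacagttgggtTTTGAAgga
Mcm6: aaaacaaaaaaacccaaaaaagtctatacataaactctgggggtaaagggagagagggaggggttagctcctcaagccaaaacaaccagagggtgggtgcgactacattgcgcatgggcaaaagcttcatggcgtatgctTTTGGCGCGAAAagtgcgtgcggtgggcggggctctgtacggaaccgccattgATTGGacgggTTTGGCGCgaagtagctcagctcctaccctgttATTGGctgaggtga
Mcm5: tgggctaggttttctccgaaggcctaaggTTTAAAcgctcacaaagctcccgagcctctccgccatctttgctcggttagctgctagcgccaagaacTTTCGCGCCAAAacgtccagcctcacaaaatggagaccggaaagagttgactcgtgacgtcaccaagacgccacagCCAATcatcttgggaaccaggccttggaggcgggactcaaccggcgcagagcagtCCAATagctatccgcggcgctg
Top2a held 2 CHR and 6 CCAAT matches in this stretch, Cdk1 1 CHR, 3 CCAAT and 1 E2F match, and Cdc20 1 CHR and 1 CCAAT match. Mcm6 held 3 E2F and 2 CCAAT matches and no CHR match, and Mcm5 held 2 E2F, 1 CHR and 2 CCAAT matches. In Mcm5 both E2F matches, and in Mcm6 a pair of the 3, overlap on opposite strands.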

How the data were processed

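Lung RNA of 12 mice was sequenced, and the authors deposited 1 table of TPM for 55414 genes, calculated with RSEM, without pooling, and rounded. The submitters' processing notes name fastp, HISAT and RSEM, with no version given, and the genome build GRCm38.p5. TPM keep no depth, so that no count model was fitted, and a group of abundant transcripts lowers all other values of its library. Samples were grouped by the genotype in the labels.

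Values were analyzed as log2(TPM + 1) with limma 3.58.1 in R 4.3.3 (lmFit, eBayes with a trend, genotype as the single term) over 15148 genes with at least 1 TPM in at least 6 libraries, and p-values were adjusted by Benjamini-Hochberg over all of them. The procedure was first tested on simulated data. The study's methods also list limma with limits on fold change and adjusted p. For genes printed in full, the mean log2(TPM + 1) was permuted between genotypes (exact, two-sided). SciPy 1.17.1, pandas 2.3.3 and NumPy 2.4.6 under Python 3.11.15 served for the other values and matplotlib 3.10.9 for the plots. Gene coordinates (GRCm38) are those of GENCODE M21, where 52081 of the gene IDs were found, and promoter sequences are from RefSeq.

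The 40 genes and the lists were chosen with earlier results of these data known. Named in full were, in each of 7 role groups, the gene with the highest mean TPM and that with the smallest unadjusted p, with Mki67, Top2a, Cdk1, Pcna, E2f1 and any gene called. Of each further list of the cycle the 2 genes with the smallest p and the most abundant gene were named, with Cdkn1a, Ccnd1 and Myc, and of each marker list the most abundant gene. The analysis was repeated with 0.1 as the pseudocount, and with all genes above 0 TPM or those averaging 5 TPM or more. It was also repeated after removing immunoglobulin genes from the totals and from the genes tested, which were then 15085. Further repeats centred on medians, normalized quantiles or took replicate numbers as a block. The last left out 1 library at a time, the same 15148 genes being tested. Rescaling without mitochondrially encoded and globin genes, with 15409 genes tested, was chosen after seeing the data.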

Additional observations from a re-analysis of the deposited data

Results flagged for a closer look

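Of 34 groups of 6 lungs examined, for 14 genes and 3 means over the genes in each genotype, 4 held a lung far from the others on the log2(TPM + 1) scale. In each it was knockout replicate 2, which lay below the other knockout lungs with 7.75 TPM of Prc1, 7.18 TPM of Cdt1, 4.17 TPM of Mki67 and 4.01 TPM of E2f1. Chance flags about 1 in 20 groups, and the 4 are not independent, since the genes move together over the lungs.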

How the results depend on the processing

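All 40 genes kept a mean difference above 0 under each alternative that tested them, apart from Gins2 without control replicate 5 (-0.01). Genes called among all tested were 75, and 39 with quantile normalization and 36 with median centring. They were 6 with no filter (31629 genes tested) and 27 when rescaled without immunoglobulin genes (15085 tested). In the latter fit both the scaling and the genes tested had changed, so that the lower count cannot be put down to the scaling alone. Genes of the 40 with an unadjusted p of at most 0.05 were 4 (6.83% of all genes tested were higher with such a p), and 2 with no filter (3.87%), 2 when rescaled without immunoglobulin genes (4.93%), 15 with quantile normalization (10.3%) and 15 with median centring (10.3%). The cause was not tested.

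An unadjusted p of at most 0.05 was found in 20 of 20 alternatives for Cdk1, 13 for Tyms and 10 for Prc1. With each library left out, genes called among all ranged from 19 to 604, genes of the 40 called from 0 to 1, those with a mean above 0 from 39 to 40, and those with such a p from 1 to 36. The latter were 36, 13, 7, 1, 1 and 1 without control replicates 1 to 6 and 1, 23, 1, 1, 1 and 2 without knockout replicates 1 to 6. The shares of all genes tested that were higher with such a p were, in the same order, 18.0%, 5.83%, 7.34%, 3.98%, 3.14% and 4.30%, and 5.13%, 11.2%, 3.33%, 5.88%, 3.48% and 4.39%. Genes called among all were 604 (359 higher), 38, 23 and 35 without control replicates 1, 4, 5 and 6, and 19, 116, 33, 19 and 46 without knockout replicates 1, 2, 3, 5 and 6. The median log2 fold change ranged from 0.62 to 1.23 for mitosis and from 0.45 to 0.91 for S phase genes, and the S phase minus mitosis shift from -0.27 to -0.15.

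With the replicate number as a block, 45 genes were called among all, 0 of the 40, and 4 of the 40 passed 0.05 before adjustment by limma, where 5.19% of all genes tested were higher with such a p. The numbers do not pair the lungs: deviations of same-numbered lungs correlated at -0.292 to 0.0458, and 0 of 6 lungs correlated best with its own number.

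TPM carry no depth, so that no counting error can be given, and the precision rests on 6 lungs per genotype. With controls that differ this much, a missed threshold does not show equal levels.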
